A study of Mus musculus with 16 samples.

Results

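The genes examined here encode the potassium channels of the mouse dorsal raphe nucleus (DRN). They are the 68 entries of the normalized count table whose symbol opens with Kcn followed by a subfamily letter and a number, of 14504 genes in all, after leaving out the noncoding Kcnq1ot1 and Kcnd3os. The 68 fall into 19 subfamilies and were ordered by role into 15 voltage-gated pore subunits of the Kv1 to Kv4 type, 10 subunits of the M-current and ether-a-go-go (EAG) family, 7 silent Kv subunits, 10 accessory subunits, 6 calcium- and sodium-activated channels, 12 inward rectifiers and 8 two-pore leak channels. The DRN of adult male C57BL/6 mice was profiled by poly(A) RNA sequencing in 16 libraries of 6 groups. Controls were unstressed mice, and the others went through 30 days of chronic social defeat by aggressive CD1 males. Clustering of their behavior divided the stressed mice into a passive (PS) and an active (AS) coping phenotype, so both names are cluster assignments. Each mouse was injected with saline or with dexamethasone (DEX, 2 mg/kg), a synthetic glucocorticoid, and the DRN was punched from frozen sections of brains collected 6 h later. The saline groups held 3 control, 2 PS and 3 AS libraries and the DEX groups 3 control, 3 PS and 2 AS libraries. Each library is 1 mouse and is named by group and animal number, so that con_sal_104 is control saline, PS_dex_6 is PS with DEX, and so on. Within a group, values are listed in the order con_sal_102, con_sal_104 and con_sal_114 for control saline, con_dex_101, con_dex_116 and con_dex_122 for control DEX, PS_sal_62 and PS_sal_68, PS_dex_34, PS_dex_6 and PS_dex_64, AS_sal_14, AS_sal_40 and AS_sal_8, and AS_dex_38 and AS_dex_42.

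Potassium channels let potassium leave or enter the cell and so set the resting potential, the shape of the action potential and the firing rate. Voltage-gated channels of the Kv1 to Kv4 type repolarize the membrane after a spike, M-current and EAG channels restrain repetitive firing, and two-pore channels carry the leak current at rest. Serotonin neurons of the raphe are known for slow, regular firing and for autoinhibition, in which serotonin acts on its own 5-HT1A receptor and opens G protein-gated inward rectifiers (GIRK channels) built from the Kcnj3, Kcnj5, Kcnj6 and Kcnj9 subunits. Silent Kv subunits form no channel alone and modify Kv2 channels, while accessory subunits change gating or trafficking of the pore.

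The libraries held 38207157 to 62447298 reads in the listed genes, and each potassium channel gene had reads in every library. Only Kcnmb1 dropped below 10 reads, with 6 in 1 library. Tph2, the enzyme that defines serotonin neurons, had 91764 to 182191 normalized counts, so that serotonin neurons were well represented in all 16 libraries. DEX libraries with low Tph2 had been excluded from PS and AS by the study. Other cell types were present too, and in bulk tissue fewer cells of a type and less RNA per cell cannot be told apart. The 10 microglial markers summed to 9084 to 14279.7 normalized counts in saline and 8259 to 9850.1 in DEX libraries. The 12 markers of myelinating oligodendrocytes summed to 139285 to 228459.6 in saline and 135986 to 191303 in DEX libraries. No marker of either list was at 0 in any library.

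Per kilobase of exon, the two-pore leak channel Kcnk9 (TASK-3) had the highest mean level, 2416 normalized counts per kb with libraries from 1504 to 3099. Kcnj10 (Kir4.1), the inward rectifier of astrocytes and other glia, followed at 2302 with libraries from 1733 to 2856, a range that lay inside that of Kcnk9. Kcnab2, a cytoplasmic beta subunit of Kv1 channels, came next at 1985. The fast Kv3 subunits Kcnc1 and Kcnc4 stood at 1469 and 1432 and the leak channel Kcnk1 (TWIK-1) at 1098. At the other end, 17 of the 68 had a mean under 100 per kb.

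**Figure D1:**
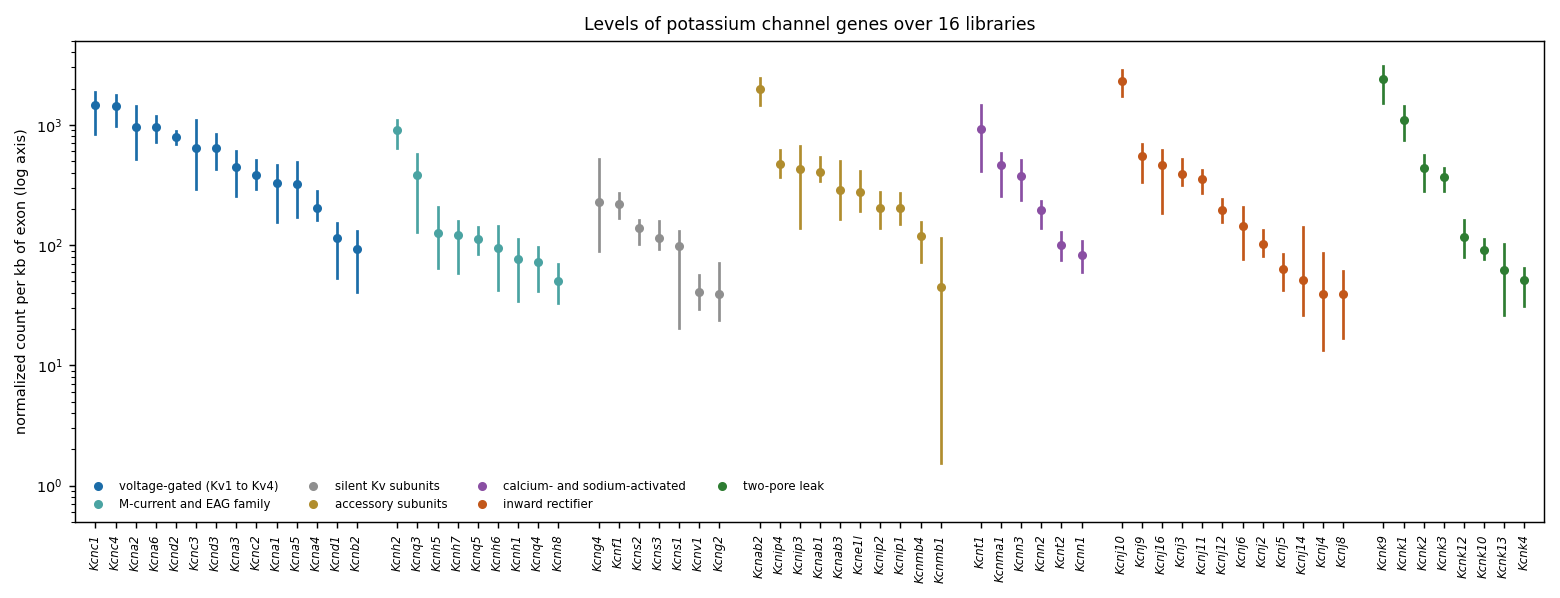
Mean normalized count per kb of exon (circles, log axis) of potassium channel genes, 66 of the 68, grouped by role, with vertical lines from the lowest to the highest of the 16 libraries. Most lines are short, and the longest belongs to Kcnmb1, whose libraries ran from 1.56 to 113.96 per kb.

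The leading member was Kcna2 among Kv1 subunits (967 per kb) and Kcnd2 among the A-type Kv4 subunits (791). Kcnh2, the ERG channel, led the EAG family at 903, and Kcnt1, a sodium-activated channel (Slack), stood at 916. Kcnn3, the small-conductance calcium-activated channel SK3, had 374 per kb. Of the modulators, Kcnip4 led the Kv4-interacting proteins at 474, Kcng4 and Kcns2 led their silent subfamilies at 229 and 139.9, and Kcnmb4, the neuronal beta subunit of BK channels, had 118. Kv1 to Kv4 subunits together made up 28.7% to 34.8% of the summed per-kb level of all 68 genes in a library, and silent subunits 2.53% to 4.05%. Kcnd2 was the steadiest gene, with a coefficient of variation of 6.95% over the 16 libraries, against 73.5% for Kcnmb1, 61.1% for Kcnj4 and 56.2% for Kcnj14.

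DEX was compared with saline within each phenotype and as the mean of the 3 differences, to ask how the DRN answers glucocorticoid receptor activation. In the average over phenotypes 6 potassium channel genes rose and 2 fell, and 60 did not pass the test (limma on log2 of the normalized count plus 1, Benjamini-Hochberg adjusted p under 0.1 over all 14504 genes). The risers were Kcnk1, Kcna5, Kcnk2, Kcng2, Kcnt1 and Kcnn2, and the genes that fell were Kcnk13 and Kcnj4. In the same contrast 4.31% of all genes were called, 403 up and 222 down, so the 8 of 68 (11.8%) are to be read against that share. The median log2 difference over the 68 was 0.04, beside 0.00 over all genes, and ran from 0.00 (without AS_sal_40) to 0.10 (without con_sal_102) with 1 library left out. Within controls 2 genes rose and none fell (1.26% of all genes called), within PS 3 rose and 1 fell (0.703%), and within AS 3 rose and none fell (0.689%). Kcnk1 and Kcna5 were the 2 genes called in every phenotype.

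**Figure D2:**
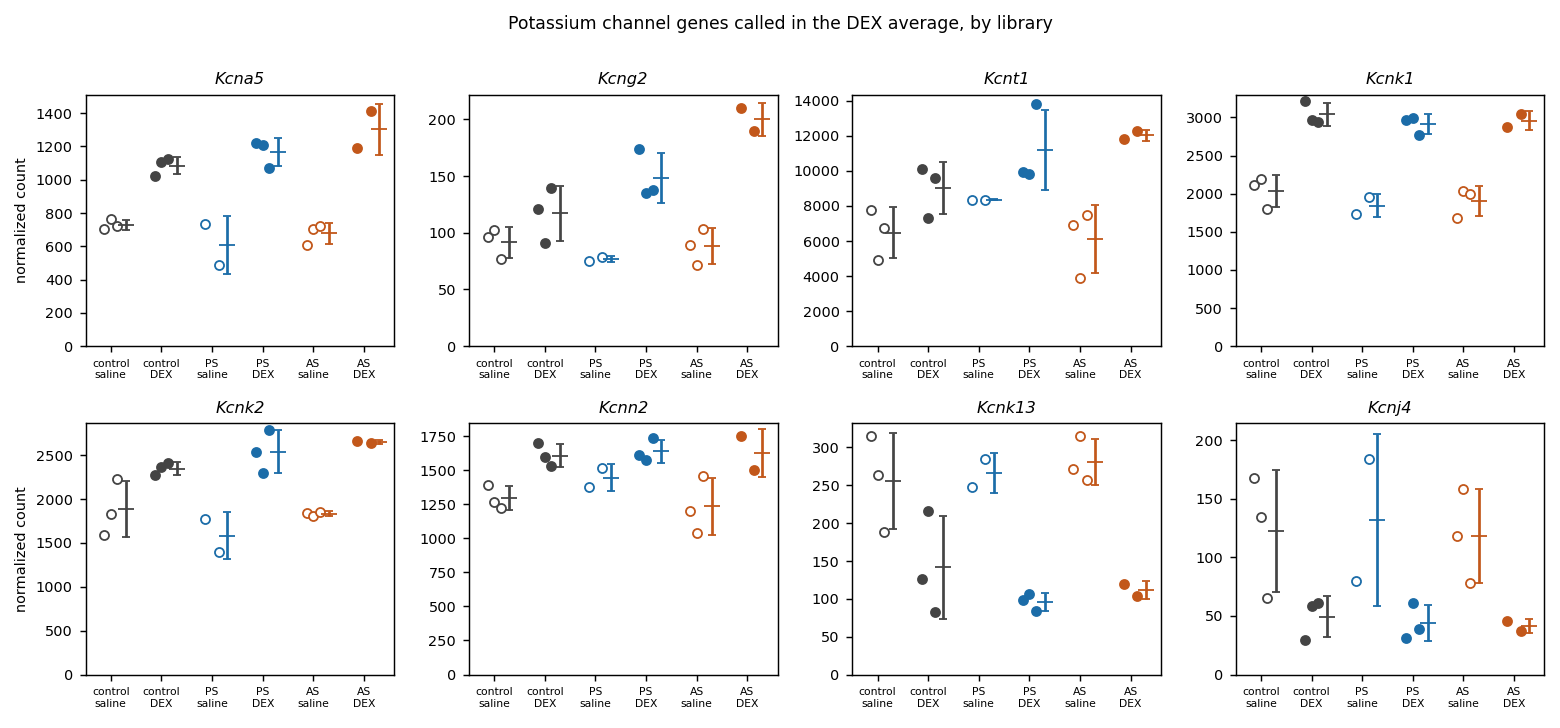
Normalized counts of the 8 genes called in the DEX average, with 1 circle per library (open for saline, filled for DEX), the group mean as a dash and the SD as bars, for control, PS and AS mice with 2 or 3 libraries a group. For Kcnk1, Kcna5, Kcnk2 and Kcnj4 the 8 DEX libraries lie entirely on 1 side of the 8 saline libraries. These genes had been called on the same libraries, and the share of all genes that separate this way was not computed.

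Of the two-pore leak channels, Kcnk1 (chr8:125995170-126030685, plus strand, mm10) rose in every phenotype. Kcnk1 had 2107, 2196 and 1799.8 in the control saline libraries, 1734 and 1949.5 in PS saline and 1680.1, 2034 and 1992 in AS saline. After DEX it had 3216, 2964 and 2939.7 in control DEX, 2972, 2998 and 2766 in PS DEX and 2870.1 and 3042 in AS DEX. The lowest DEX library lay above the highest saline library, and the 3 phenotypes gave nearly the same step. For controls, PS and AS in turn, the log2 difference (± SE) was 0.58 ± 0.10, 0.66 ± 0.11 and 0.64 ± 0.11, at adjusted p values of 0.0119, 0.0168 and 0.0202 (limma). Averaged over phenotypes it was 0.63 ± 0.06 (adjusted p = 3.81e-05). The AS call was lost when AS_dex_38 or AS_dex_42 was left out, and the PS call without PS_sal_62.

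Kcnk2 (TREK-1, chr1:189207930-189402273, minus strand), a leak channel gated by stretch, lipids and temperature, also rose. Kcnk2 had 1596, 1828 and 2231 in the control saline libraries, 1772 and 1393 in PS saline and 1844, 1807 and 1855 in AS saline. The DEX libraries held 2272, 2363 and 2408 in control DEX, 2535, 2295 and 2788 in PS DEX and 2663 and 2637 in AS DEX. Groups did not overlap, but the margin was narrow, since con_sal_114 came close to the lowest control DEX library. The log2 difference was 0.69 ± 0.14 in PS (adjusted p = 0.0419, limma). Over the 3 phenotypes it averaged 0.52 ± 0.08 (adjusted p = 0.00114). The PS call was lost without PS_sal_68, PS_dex_34 or PS_dex_64. In controls and AS it was 0.33 ± 0.12 and 0.53 ± 0.14 and did not pass (adjusted p = 0.313 and 0.155). Exons of Kcnk2 share 604 bases with A430027H14Rik on the opposite strand, and whether counting used strand is not stated in the sources used here. The same limit holds for the called genes Kcnk1 (179 shared bases), Kcng2 (272) and Kcnn2 (284 and 323). It also holds for the GIRK subunits Kcnj3 (1621), Kcnj6 (380) and Kcnj9 (172).

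Kcnk13 (THIK-1, chr12:99964499-100062682, plus strand), a leak channel known from microglia, fell. Kcnk13 had 315, 264 and 188 in the control saline libraries, 247 and 285 in PS saline and 271, 315 and 257 in AS saline. DEX libraries had 127, 216 and 82.3 in control DEX, 98.0, 106 and 83.5 in PS DEX and 120.2 and 103 in AS DEX. In PS and AS every DEX library lay under every saline library, whereas con_dex_116 lay above con_sal_114. The log2 difference was -1.47 ± 0.33 in PS (adjusted p = 0.0823, limma). For controls and AS it was -0.93 ± 0.29 and -1.32 ± 0.33 and did not pass (adjusted p = 0.227 and 0.128). Over the 3 phenotypes it averaged -1.24 ± 0.18 (adjusted p = 0.00111). Dropping each library in turn ended the PS call 11 times of 16, among them for each of the 5 PS libraries, while the average stayed called all 16 times. In the DEX average, where 4.31% of all genes were called and 49.4% were higher, microglial markers moved the same way. Of the 10 markers, 9 were lower and 3 were called. The mean log2 deviation of those markers was 0.02 to 0.58 in saline and -0.28 to -0.02 in DEX libraries, and their part in the Kcnk13 result was not tested.

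The other 5 leak channels did not pass in any contrast. Kcnk9, the most abundant, had 26095 ± 2529.9 (SD, n = 3) in control saline and 33109 ± 1928 (n = 3) in control DEX. In PS saline and PS DEX it had 33321 ± 6791 (n = 2) and 30235 ± 2905 (n = 3). In AS saline and AS DEX it had 26371 ± 7019 (n = 3) and 30665 ± 634 (n = 2). The average log2 difference was 0.16 ± 0.11 (adjusted p = 0.528, limma). Kcnk12 (THIK-2), which carries little current of its own, had an average of -0.24 ± 0.12 (adjusted p = 0.406) and was among the 5 lowest averages of the genes with a mean of at least 100.

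Kcna5 (Kv1.5, chr6:126532551-126535412, minus strand), a delayed rectifier, was the only called gene among the Kv1 to Kv4 subunits. Kcna5 had 705, 765 and 720.1 in the control saline libraries, 731 and 487 in PS saline and 607, 703 and 725 in AS saline. With DEX the counts were 1025, 1104 and 1127 in control DEX, 1222, 1211 and 1070.4 in PS DEX and 1192 and 1412 in AS DEX. No saline library reached the DEX range, and PS_sal_68 was the lowest of all. For controls, PS and AS the log2 difference was 0.57 ± 0.14, 0.97 ± 0.16 and 0.94 ± 0.16, at adjusted p values of 0.0983, 0.0127 and 0.015 (limma). The control call sat at the threshold and ended 13 times of 16 when each library was dropped in turn, in all cases but PS_sal_62, PS_sal_68 and AS_sal_40. The PS call ended without PS_sal_68 and the AS call without AS_dex_42. Averaged over phenotypes the difference was 0.83 ± 0.09 (adjusted p = 6.40e-05). Kcna5 lies in a row with Kcna1 and Kcna6 on chromosome 6, with gaps of 105.0 and 61.9 kb, yet its neighbors did not pass: their average differences were 0.48 ± 0.20 and -0.19 ± 0.09 (adjusted p = 0.309 and 0.351). Kcna6 was among the 5 lowest averages.

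Because the glucocorticoid receptor binds DNA as a dimer on paired half-sites, the promoters of the called genes were searched for the half-site AGAACA on both strands and for the paired core ACANNNTGT, which can share bases with that half-site. RefSeq promoter windows, 250 bases upstream of a start site in GRCm38.p6, were matched for 50 of the 68 genes (73 windows), among them Kcna5, Kcnk1, Kcnk2, Kcnk13 and Kcnj4. Matches are shown for Kcna5 and Kcnk2, with the motif in capitals and the strand of the gene read 5′ to 3′. The Kcna5 core begins 57 bases before the start site, at chr6:126535592-126535624 on the minus strand, and the Kcnk2 half-site 241 bases before 1 of the start sites, at chr1:189402497-189402523 on the minus strand.
Kcna5: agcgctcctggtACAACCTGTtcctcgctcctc
Kcnk2: cagctagtaAGAACAaccgtcgctagc
Of all 32851 promoter windows, 5.84% held the core and 16.1% the half-site, against 4 and 10 of the 73 windows of potassium channel genes (5.48% and 13.7%). Among the 13273 windows of genes in the count table, 3.70% held the core and 10.6% the half-site, so the shares of the channel genes lay between both backgrounds. The core was also in windows of Kcnip4 (a Kv4 partner) and of the silent subunits Kcns3 and Kcnf1, which did not pass in any DEX contrast. The half-site was also in windows of Kcnj10, Kcnab1, Kcnip4, Kcnc2, Kcnmb4, Kcnk10 and Kcnj6, which did not pass either. The windows of Kcnk1, Kcnk13 and Kcnj4 held neither string. No window was matched for the called genes Kcng2, Kcnt1 and Kcnn2, which were therefore not searched.

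Among silent Kv subunits, Kcng2 (Kv6.2) rose from a low level. Kcng2 had 96.1, 103 and 76.5 in the control saline libraries, 75.0 and 78.9 in PS saline and 89.6, 71.4 and 103 in AS saline. DEX gave 121, 91.3 and 139 in control DEX, 174, 135 and 137 in PS DEX and 210.1 and 189.8 in AS DEX. PS and AS groups were apart, whereas con_dex_116 fell inside the control saline range. The log2 difference was 1.19 ± 0.25 in AS (adjusted p = 0.0573, limma) and averaged 0.82 ± 0.14 over the phenotypes (adjusted p = 0.00329). The AS call ended without AS_sal_14, AS_sal_40, AS_dex_38 or AS_dex_42. Its AS difference exceeded that of controls by 0.85 ± 0.33, the smallest of the 68 by p in that interaction (adjusted p = 0.941 in limma). Kcns1 (Kv9.1) had an average difference of 0.75 ± 0.26 that did not pass (adjusted p = 0.186). PS_sal_68 had 55.1 normalized counts of Kcns1, against 179 to 353 in the other 15 libraries.

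Kcnt1 (chr2:25863734-25918273, plus strand) and Kcnn2, channels opened by sodium and by calcium, rose in the average over phenotypes. Neither was called within a phenotype in the main limma fit. DESeq2 called Kcnt1 within AS, as did limma with the transcript length trend removed or without AS_sal_8. With library weights, limma called both genes within AS, where 9.67% of all genes were called. Kcnt1 had 7787, 4929 and 6716 in the control saline libraries, 8362 and 8368 in PS saline and 6939.9, 3915 and 7511 in AS saline. DEX libraries had 10107, 7332 and 9581 in control DEX, 9915, 9823 and 13832 in PS DEX and 11816 and 12265 in AS DEX. The highest level was in PS_dex_64 and the lowest in AS_sal_40, and con_dex_116 lay inside the saline range. The log2 differences of 0.49, 0.40 and 1.03 for controls, PS and AS averaged 0.64 ± 0.14 (adjusted p = 0.0236, limma). Kcnn2 (SK2), which carries the afterhyperpolarization, had log2 differences of 0.31, 0.18 and 0.41 for the same 3. Its counts ran from 1042 to 1516 (median 1320.3) in the 8 saline and from 1504 to 1752 (median 1601) in the 8 DEX libraries. The average of 0.30 ± 0.07 (adjusted p = 0.0411, limma) was lost without PS_sal_62 or without AS_dex_38. Kcnn3, the more abundant SK subunit, had 0.19 ± 0.13 and did not pass (adjusted p = 0.5).

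Kcnj4 (Kir2.3, chr15:79483714-79505241, minus strand), a classical inward rectifier of neurons, fell in the average. Kcnj4 had 167, 134 and 65.5 in the control saline libraries, 79.8 and 184 in PS saline and 118, 158 and 77.7 in AS saline. DEX libraries held 29.0, 58.1 and 61.1 in control DEX, 31.4, 60.8 and 39.1 in PS DEX and 45.5 and 37.4 in AS DEX. The groups did not overlap, though saline levels were widely spread and con_sal_114 came near the highest DEX library. The log2 difference averaged -1.40 ± 0.28 (adjusted p = 0.00985, limma). For controls, PS and AS it was -1.26, -1.50 and -1.44, none of which passed alone (adjusted p = 0.293, 0.488 and 0.375). Kcnj10, whose gene lies 11.9 kb from Kcnj9 on chromosome 1, had -0.04 ± 0.11 (adjusted p = 0.887).

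Markers of myelinating oligodendrocytes also moved with DEX, 11 of 12 lower in the average, where 49.4% of all genes were higher, and 6 called. With their mean log2 deviation (-0.14 to 0.53 in saline and -0.59 to 0.07 in DEX libraries) as a covariate, 2 of the 8 genes kept their call in the average, Kcnk1 and Kcna5, while the calls over all genes went from 4.31% to 0.834%. The log2 differences of the other 6 in that fit were 0.79 for Kcng2, 0.52 for Kcnt1, 0.37 for Kcnn2, 0.33 for Kcnk2, -0.78 for Kcnk13 and -1.12 for Kcnj4, all in the direction they had without the covariate. Of these, Kcnk2 and Kcnk13 were reduced by more than 1.5 times. The part of these cells in the results was not tested. edgeR on the whole reads called the same 8 genes, and DESeq2 called these and Kcnip2 and Kcnj8. Kcnip2, a Kv4-interacting protein, had 0.33 ± 0.11 in limma (adjusted p = 0.146), and Kcnj8, the vascular subunit of ATP-sensitive channels, -0.63 ± 0.20 (adjusted p = 0.147).

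By role, the DEX differences of the phenotypes were not alike in sign. Of the 15 Kv1 to Kv4 genes, 12 were higher after DEX in controls (median log2 difference 0.32), 12 in AS (0.25) and 4 in PS (-0.24), with only Kcna5 called in each. Of all genes 50.7%, 49.0% and 48.9% were higher in controls, AS and PS. The control median was 0.49 without con_sal_102 and 0.14 without con_sal_104, and the PS median was -0.05 without PS_sal_68. The AS median was 0.02 without AS_sal_40, with 8 of 15 genes higher, and 0.13 without AS_dex_42, with 9 higher. The 10 M-current and EAG genes had medians of 0.13, 0.24 and -0.03 in controls, AS and PS, and none was called. Calcium- and sodium-activated channels had 0.37, 0.30 and 0.08. For accessory subunits the medians were -0.18 in controls, -0.04 in AS and 0.05 in PS, for inward rectifiers 0.10, -0.04 and -0.04, for silent subunits 0.23, 0.28 and -0.06 and for two-pore channels -0.01, 0.19 and -0.16. Each comparison shares its saline libraries with the comparisons between phenotypes at rest described further on.

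**Figure D3:**
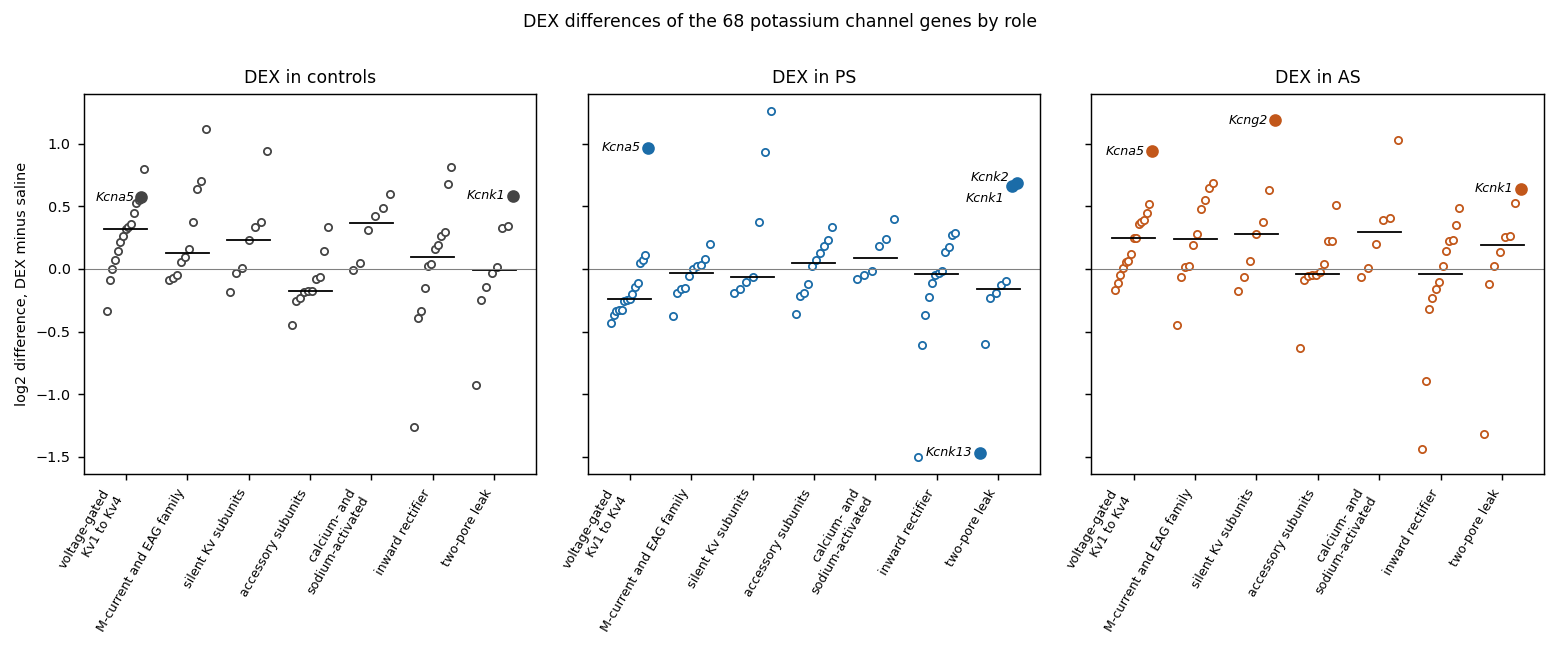
Log2 difference between DEX and saline of each of the 68 genes in controls, PS and AS, sorted within role, with filled and named circles for genes called (adjusted p under 0.1) and a black line at the median of the role. The Kv1 to Kv4 median lies above 0 in controls and AS and below 0 in PS.

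No potassium channel gene was called in the 3 tests of whether the DEX difference depended on the phenotype, where limma called 0 of all 14504 genes (0%). At an unadjusted p under 0.05 the PS minus control test had 3 of the 68 (304 of all genes), AS minus control 1 (583) and AS minus PS 0 (421). edgeR and DESeq2 also called 0 of the 68. The smallest p for PS minus control belonged to Kcnj3, with a difference of -0.53 ± 0.20 (adjusted p = 1), and for AS minus PS to Kcnh6, an ERG-family channel, with 1.07 ± 0.57 (adjusted p = 0.869). The medians over the 68 were -0.13 for PS minus control, -0.02 for AS minus control and 0.19 for AS minus PS. With 1 library left out the first ran from -0.26 (without con_sal_102) to -0.05 (without con_sal_114) and the last from 0.11 (without AS_sal_40) to 0.33 (without AS_sal_8), while the AS minus control median turned sign, from -0.13 (without AS_sal_40) to 0.09 (without con_sal_114). In the joint test over the 6 groups 5 of the 68 were called (Kcnk1, Kcna5, Kcnk13, Kcnk2 and Kcng2), against 1.57% of all genes.

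The GIRK subunits showed no called difference in any contrast. Kcnj9 (GIRK3) had the highest level per kb, 553, followed by Kcnj3 (GIRK1) at 387, Kcnj6 (GIRK2) at 144 and Kcnj5 (GIRK4) at 62.7. The per-kb ranges were 334 to 689.6, 316 to 518, 75.9 to 206 and 41.9 to 84.9, so Kcnj9 and Kcnj3 overlapped across libraries, Kcnj3 lay above Kcnj6 throughout, and Kcnj6 and Kcnj5 overlapped at their margins.

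**Figure D4:**
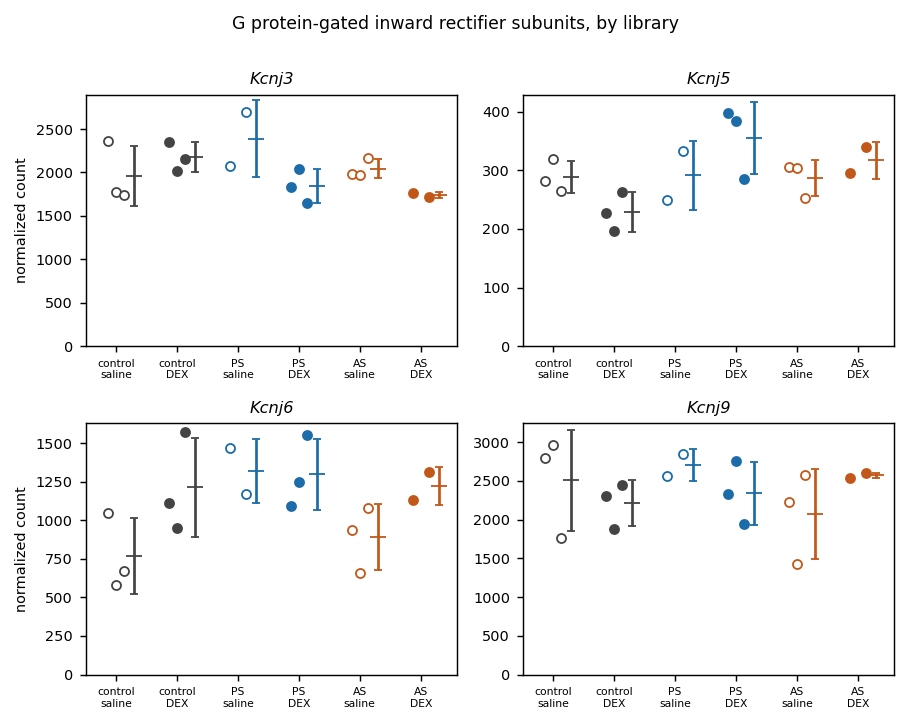
Normalized counts of Kcnj3, Kcnj5, Kcnj6 and Kcnj9, with 1 circle per library (open for saline, filled for DEX), the group mean as a dash and the SD as bars, for control, PS and AS mice with 2 or 3 libraries a group. Kcnj6 in the 2 PS saline libraries lies above the 3 control saline libraries, and none of these differences passed the test over all genes.

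Kcnj6 had 1046, 579 and 674 in the control saline libraries, 1466 and 1173 in PS saline and 934, 657 and 1078 in AS saline. Both PS saline libraries were above all control and AS saline libraries. The log2 difference of PS against control was 0.82 ± 0.28 and did not pass (adjusted p = 0.571, limma). After DEX the gene had 1111, 952 and 1575 in control DEX, 1093, 1249 and 1550.1 in PS DEX and 1133 and 1311 in AS DEX. For controls, PS and AS the DEX difference was 0.68 ± 0.25, -0.03 ± 0.28 and 0.48 ± 0.28 (adjusted p = 0.304, 1 and 0.562).

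Kcnj3, the subunit that most neuronal GIRK channels contain, had 2361, 1775 and 1744 in the control saline libraries, 2077 and 2701 in PS saline and 1985, 1973 and 2167 in AS saline. DEX libraries had 2356, 2012 and 2149.6 in control DEX, 1835, 2039 and 1650.4 in PS DEX and 1759.8 and 1712 in AS DEX. In PS and in AS the DEX libraries lay under the saline libraries, in controls the groups overlapped, and the differences were -0.37 ± 0.15, -0.23 ± 0.15 and 0.16 ± 0.13 (adjusted p = 0.866, 0.575 and 0.638, limma). Kcnj5, known best from the heart, had a difference of -0.34 ± 0.18 in controls and 0.29 ± 0.20 in PS. Kcnj9 stayed between 1431 and 2957 with an average difference of -0.01 ± 0.14 (adjusted p = 0.985).

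Of 30 genes for receptors, G proteins and regulators that act on GIRK channels, 2 rose and 2 fell in the DEX average, in which 4.31% of all genes were called. Htr1d, a serotonin autoreceptor, had 812, 783 and 600.2 in the control saline libraries, 976 and 875 in PS saline and 829, 972 and 875 in AS saline. After DEX it had 1522, 1461 and 1648 in control DEX, 1563, 1606 and 1429.6 in PS DEX and 1442 and 1530.3 in AS DEX. All 8 DEX libraries lay above all 8 saline libraries, and the average difference was 0.85 ± 0.08 (adjusted p = 1.24e-05, limma), with a call in each phenotype. Rgs9, which speeds the shut-off of Gi/o signals, rose by 0.37 ± 0.10 (adjusted p = 0.0885). Htr1a, the 5-HT1A autoreceptor that opens GIRK channels in serotonin neurons, changed by -0.25 ± 0.07 (adjusted p = 0.0677) and Adra2a, an inhibitory adrenergic receptor, by -0.36 ± 0.10 (adjusted p = 0.0634). Of 22 other partner genes outside the Kcn symbols, Sgk1 alone was called, which is about the share of all genes. Sgk1, a kinase that raises the surface level of several channels and a known glucocorticoid target, had 1988, 2102 and 1978 in the control saline libraries, 2840.4 and 2406 in PS saline and 2188, 3127 and 2884 in AS saline. DEX libraries had 6333, 5445 and 5389 in control DEX, 5982, 5996 and 4995 in PS DEX and 5029 and 6026 in AS DEX, an average difference of 1.21 ± 0.08 (adjusted p = 1.03e-06).

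Saline libraries were compared between phenotypes to ask how the stressed phenotypes differed from controls at rest. No potassium channel gene was called in any of the 3 comparisons, in which limma called 0% of all genes. At an unadjusted p under 0.05 PS against control had 10 of the 68 (1112 of all genes), AS against control 0 (347) and AS against PS 1 (494), and edgeR and DESeq2 called 0 of the 68. Median log2 differences over the 68 were 0.14, 0.02 and -0.12, beside 0.01, 0.02 and 0.00 over all genes. With 1 library left out they ran from 0.05 (without con_sal_114) to 0.25 (without con_sal_102) for PS and control, from -0.04 (without con_sal_114) to 0.13 (without AS_sal_40) for AS and control, and from -0.26 (without AS_sal_8) to -0.04 (without AS_sal_40) for AS and PS. For PS against control, 14 of 15 Kv1 to Kv4 genes (median 0.42), 8 of 10 M-current and EAG genes (0.38) and 11 of 12 inward rectifiers (0.12) were higher, and 9 of 10 accessory subunits were lower (-0.14). Of all genes 51.0% were higher in that comparison, beside 67.6% of the 68. The Kv1 to Kv4 median leaned on single libraries: it was 0.74 without con_sal_102, 0.18 without con_sal_104, 0.28 without con_sal_114 and 0.12 without PS_sal_68, with 12 to 14 of the 15 genes higher each time. Kcna5 was the only Kv1 to Kv4 gene lower in PS, with a log2 difference of -0.29 ± 0.16 (adjusted p = 0.571).

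The smallest p for PS against control belonged to Kcnmb4, which makes neuronal BK channels slow and resistant to iberiotoxin. Kcnmb4 had 411, 515 and 480.4 in the control saline libraries, 367 and 239 in PS saline and 469, 395 and 357 in AS saline. PS_sal_68 was the lowest and both PS libraries lay under the 3 control libraries, a difference of -0.65 ± 0.19 (adjusted p = 0.571, limma). It also had the smallest p for AS against PS (0.45 ± 0.19, adjusted p = 0.728). For AS against control the smallest p was that of Kcnv1, a silent subunit, at 0.43 ± 0.25 (adjusted p = 0.998). Kcns1 was called in the saline comparisons of PS with control and with AS and in the PS minus control DEX difference once PS_sal_62 was left out, where PS saline rests on the low PS_sal_68 library alone.

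The level of Kv1 to Kv4 genes varied across libraries together with that of genes of long transcripts. For each library the median log2 deviation of genes in the lowest quartile of exon length was subtracted from that of the highest quartile, with the potassium channel genes left out of both. Libraries con_sal_104, con_sal_114 and AS_sal_40 had -0.42, -0.19 and -0.43 on this scale, and all others lay between -0.06 and 0.19. The mean log2 deviation of the 15 Kv1 to Kv4 genes was -0.44, -0.31 and -0.45 in those libraries and -0.10 to 0.28 in the others. Over the 16 libraries Pearson's r was 0.95 and Spearman's rho 0.90, r was 0.91 without the 2 libraries farthest from the median length value, and 0.94 after subtracting group means. Over the 13 libraries left without con_sal_104, con_sal_114 and AS_sal_40, r was 0.84. M-current and EAG genes gave an r of 0.92, two-pore channels 0.38 and accessory subunits -0.32. These are descriptions over libraries that share the normalization, and what moved length and channels together was not tested. With the length trend of each library removed, the median PS difference of Kv1 to Kv4 genes at rest went from 0.42 to 0.33, with 14 of 15 still higher, and the DEX difference in controls from 0.32 to 0.15, with 11 of 15 higher. The 8 calls of the DEX average were the same 8 after this step.

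**Figure D5:**
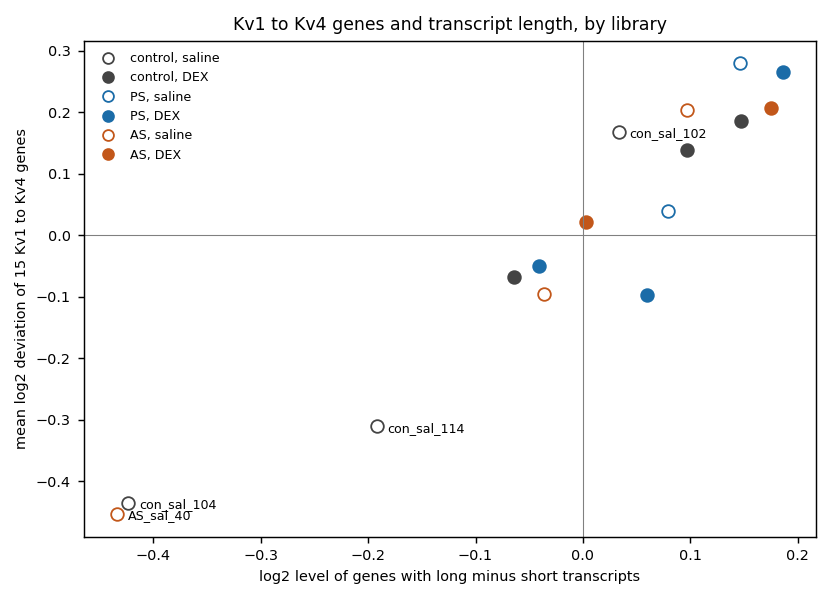
Mean log2 deviation of the 15 Kv1 to Kv4 genes against the log2 level of genes with long minus short transcripts, with 1 circle per library (open for saline, filled for DEX, color by phenotype). Libraries con_sal_104, con_sal_114 and AS_sal_40 lie at the lower left, at -0.44, -0.31 and -0.45 on the vertical axis.

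Kcng4 (Kv6.4, a silent subunit) and Kcnj14 (Kir2.4, known from motor neurons) were highest in con_dex_116, at 1973 and 384 normalized counts, against at most 1396 and 249 in the other 15 libraries. Neither was called in any contrast. Kcnmb1, a smooth-muscle beta subunit of BK channels, had the highest coefficient of variation of the 68 and was not called in any contrast. Kcnmb1 had 115.91, 291 and 64.5 in the control saline libraries, 188 and 66.0 in PS saline and 384, 221 and 88.7 in AS saline. DEX libraries had 38.3, 164 and 211 in control DEX, 305, 6.52 and 478 in PS DEX and 303 and 52.1 in AS DEX, so PS_dex_6 and PS_dex_64, both of 1 group, lay 73.3-fold apart. Its average DEX difference was -0.33 ± 0.80 (adjusted p = 0.869, limma). The mean log2 deviation of 12 markers of ependymal motile cilia was -2.24 in PS_dex_6 and 1.70 in PS_dex_64. Over the 16 libraries log2 Kcnmb1 and that score had a Pearson's r of 0.96 and a Spearman's rho of 0.92, an r of 0.93 without the 2 libraries farthest from the median score and of 0.98 after subtracting group means. The next strongest of the 68 went the opposite way. Kcnk10 (TREK-2, a leak channel) had an r of -0.81 and a rho of -0.78. Kcnip1, a Kv4 partner whose gene on chromosome 11 spans that of Kcnmb1 on the other strand, had -0.72 and -0.81. These genes were chosen after their values were seen, and none of the 12 markers was at 0 in any library. Kcnip3, a calcium-binding Kv4 partner, was the accessory subunit with the next lowest average, -0.24 ± 0.30 (adjusted p = 0.731), with 491 normalized counts in con_sal_114 against 807 to 2368 elsewhere.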

How the data were processed

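Per the labels and the study's methods, the authors trimmed paired reads of strand-specific poly(A) libraries with fastp 0.20.1, aligned them to mm10 (GRCm38) with HISAT2 2.2.1 and counted genes with featureCounts (Subread 2.0) and the GENCODE vM22 annotation. The deposited signal is the gene count divided by 1 DESeq2 (1.36.0) size factor per library, so it is called the normalized count. Multiplied by a median-of-ratios factor, 100.0% of values were whole within 0.01, and these reads entered edgeR and DESeq2. The deposited tables of the authors' own comparisons (log2 fold changes and p-values) were not used. A mouse is 1 library, and animal numbers differ between groups.

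Tests used limma 3.58.1 in R 4.3.3 on log2(normalized count + 1) over all 14504 genes and 16 libraries, with 1 mean per group and an empirical Bayes trend. Genes were called at a Benjamini-Hochberg adjusted p under 0.1. Fold changes on this scale understate the change of low genes. Errors are SDs between mice or limma standard errors, so they hold counting error too. Exon lengths (GENCODE vM21) were found for 14493 genes. Scripts were tested on simulated data.

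The members and lists were chosen with earlier results of these data known. Named are members called in any contrast, GIRK subunits, the most abundant member of each subfamily with 2 or more, the 5 highest and 5 lowest DEX averages with a mean of at least 100, the smallest p in each contrast and called partner genes. Kcnip2, Kcnj8, Kcnj14, Kcnk10, Kcnip1, Kcna1 and Kcnc4 were named after their values were seen, and a few members the rule covers are not reported here. Alternatives were other pseudocounts, scalings, filters, weights and covariates, edgeR 4.0.16, DESeq2 1.42.0, and leaving out each library. Further libraries of the study were not analysed here.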

Additional observations from a re-analysis of the deposited data

How the results depend on the processing

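No call of a named gene changed direction: of 484 recomputed values, 419 kept and 65 lost the call. Groups of 2 or 3 mice limit the precision. Of the calls in the DEX average, edgeR, TMM and quantile scaling, both other pseudocounts and removal of the length trend returned the same 8, and 7 of them passed the filter on a mean of at least 100 (Kcnj4 was filtered out). The count of called members was 2 in controls, and became 1 with a pseudocount of 10, with quantile normalization, with library weights or with the myelin score as covariate, and 0 when only the groups compared entered the fit. In PS the count of 4 became 8 with library weights, 1 with only the groups compared and 1 with the myelin score. In AS the count of 3 became 11 with library weights, 0 with only the groups compared, 1 with the myelin score and 6 with DESeq2. The 8 of the DEX average became 2 with the myelin score, where Kcng2, Kcnt1 and Kcnj4 lost the call at log2 differences of 0.79, 0.52 and -1.12, and the 5 of the joint test became 12 with library weights, 1 with the myelin score and 8 with DESeq2. The median of the AS minus control interaction moved from -0.02 to 0.14 with the neuron score as covariate. Over all genes and all alternatives, calls ran from 121 to 1328 in the DEX average, 62 to 437 in controls, 30 to 529 in PS and 6 to 1402 in AS, against 625, 183, 0.703% of genes and 100 as reported, with the highest value from library weights in each but controls (DESeq2). The cause was not tested.

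Leaving out 1 library at a time gave 7 to 11 calls in the DEX average, 1 to 3 in controls, 1 (without PS_sal_68) to 4 in PS, 0 (without AS_dex_42) to 4 in AS and 2 (without PS_dex_34) to 6 in the joint test. It gave 0 to 1 for PS against control, for AS against PS and for the PS minus control interaction, the 1 being Kcns1 without PS_sal_62, and 0 in the other contrasts at rest and interactions. No paired analysis was possible because the groups share no animal numbers.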

Other observations

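The noncoding transcripts left out of the gene set were also measured. Kcnq1ot1, a nuclear RNA of the imprinted Kcnq1 locus, had 1283 normalized counts in con_sal_104, 1794 in AS_sal_40 and 2304 in con_sal_114, the 3 lowest values, and 8354 in PS_dex_64, the highest. Kcnd3os, antisense to Kcnd3 with 165 shared exon bases, had 26.5 to 105 normalized counts, with the lowest value in con_sal_104 and the highest in PS_dex_64.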
